A study of Mus musculus with 10 samples.

Results

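Cyclic nucleotide phosphodiesterases hydrolyse the second messengers cAMP and cGMP. Transcripts of 6 of these enzymes, Pde3a, Pde3b, Pde4d, Pde7b, Pde8a and Pde10a, were followed in mouse germinal vesicle oocytes, the fully grown oocytes held in meiotic prophase. They were chosen by name, with earlier results of these data known. They are 6 of the 24453 gene symbols in the deposited table, and account for 7 of its 34768 RefSeq transcript rows because Pde10a has 2. Milrinone, an inhibitor of the PDE3 enzymes, was present in the isolation medium of every library, so its own effect on these transcripts cannot be told apart from the common condition.

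The study asked how oocyte transcripts change when Setdb1, which encodes a histone H3 lysine 9 methyltransferase, is deleted in the growing oocyte. Each of 10 libraries came from 1 mouse and held 16 denuded oocytes. Mutant oocytes came from 4 Setdb1 f/-; Zp3-cre mice, which carried 1 floxed and 1 deleted Setdb1 allele and a Cre recombinase under the promoter of the zona pellucida gene Zp3, active in growing oocytes and not in the somatic cells of the follicle. Controls were 4 Setdb1 f/+; Zp3-cre mice, with Cre and 1 allele that it cannot recombine, and 2 Setdb1 f/- mice, with 1 deleted allele and no Cre. These are called f/+ and f/- controls below. All mice had the C57Bl/6J background and 1 floxed allele, all oocytes were collected in M2 medium whose milrinone content the labels give as 2.5 mM, a unit that could not be checked here, and ages were not given. No label ties the mice of different groups to a common litter or day.

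In the oocyte, cAMP keeps protein kinase A active, and protein kinase A holds CDK1 in check and thereby maintains prophase arrest. PDE3A is the main enzyme that degrades cAMP in the mouse oocyte. Cyclic GMP, which enters from the surrounding granulosa cells through gap junctions, inhibits PDE3A, and a fall of cGMP after the luteinizing hormone surge releases that inhibition and lets meiosis resume.

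The 6 enzymes share a catalytic domain, and its metal-binding signature is shown here to identify them and to show how close they are to each other. Each line gives 30 bases of the coding sequence, 5′ to 3′ on the gene's own strand, with the codons for histidine, aspartate, histidine and asparagine in capitals. The bases were read from GENCODE M21 transcripts on the GRCm38 genome.
Pde3a: CATGACtacgatCACccagggaggacaAAT
Pde3b: CACGATtacgatCACccaggaagaacaAAT
Pde8a: CATGACgtggatCACcctgggagaaccAAC
Pde4d: CATGATgtggacCATcctggggtgtcaAAT
Pde7b: CATGACgtggacCACccaggggtcaaccag
Pde10a: CATGACctggacCACaggggcttcagtAAC
These stretches lie in 1 exon each, at chr6:141487899-141487928 for Pde3a, chr7:114526921-114526950 for Pde3b, chr7:81324067-81324096 for Pde8a, chr13:109939313-109939342 for Pde4d, chr10:20434510-20434539 on the minus strand for Pde7b and chr17:8967449-8967478 for Pde10a. The full signature, with any codons between the capitals, occurred in 34 of 22075 coding genes (0.154%), among them 19 of the 24 phosphodiesterase genes listed here. Pde7b lacked the last codon of the signature, which was found without it in 328 coding genes (1.49%). Over these 30 bases Pde3a and Pde3b, the pair inhibited by milrinone, were the most alike, with 26 identical bases. Pde3b and Pde10a were the least alike, with 14.

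The genes lie at chr6:141249269-141507448 (Pde3a, plus strand), chr7:114415281-114539251 (Pde3b, plus), chr7:81213596-81334533 (Pde8a, plus), chr13:108449948-109953461 (Pde4d, plus), chr10:20398004-20725078 (Pde7b, minus) and chr17:8525372-8986648 (Pde10a, plus), in GRCm38. Pde3a shares exonic bases with Gm28523, an antisense gene at its 5′ end, and the library kit does not mark strand, so reads in that stretch cannot be assigned to either strand. No exons of other annotated genes overlapped the other 5.

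The values were RPKM, read counts scaled to transcript length and library total, and the library totals implied by them ran from 45.9 M to 72.7 M reads. Differences were tested with limma on log2(RPKM + 0.5) over the 11338 genes whose mean reached 0.5 RPKM, with Benjamini-Hochberg adjustment over all of them and a threshold of 0.05. All 6 genes passed that filter on the mean of the 10 libraries, Pde4d and Pde7b through the controls, since their mutant means were lower than 0.5 RPKM. As a check of the labels, Setdb1 stood at 4.06, 2.55, 3.32 and 1.31 RPKM in the mutants, against 28.6, 25.7, 25.1 and 52.5 RPKM in the f/+ controls and 19.9 and 26.3 RPKM in the f/- controls (exact two-sided permutation test of the difference of mean log2 values, p = 0.0048, the smallest that 210 splits can give). The summed level of 10 oocyte markers was 4814 to 4942 RPKM in the mutants and 4846 to 6366 RPKM in the controls. Summed granulosa and cumulus markers were 78.1 to 112 RPKM in the mutants and 76.4 to 104 RPKM in the controls. Of these 13, 6 were below a mean of 0.5 RPKM in both groups, among them Amh, Foxl2 and Has2. Most of the sum came from Serpine2 (mutant and control means 65.0 and 66.0 RPKM), Nr5a2 (13.2 and 12.7 RPKM) and Cyp19a1 (8.22 and 6.57 RPKM). Theca and stroma markers summed to 0.948 to 3.91 RPKM in the mutants and 1.02 to 3.36 RPKM in the controls, with Cyp17a1 and Col3a1 at 0 in every library. Blood, immune and endothelial markers summed to 22.8 to 43.1 RPKM in the mutants and 29.9 to 46.8 RPKM in the controls, with Hbb-b1, Hba-a1 and Cdh5 at 0, and Pecam1 and C1qb made up most of the sum. Below the filter, 2 markers of the last 3 lists separated the groups and are named after their values were seen. Adgre1, a macrophage marker, stood at 0.271 to 0.836 RPKM in the mutants and 0 to 0.00424 RPKM in the controls, and Pdgfra, a stromal marker, at 0 to 0.0028 RPKM in the mutants and 0.0665 to 0.295 RPKM in the controls. Of the other immune markers, Ptprc was at 0 in every mutant. C1qb averaged 12.7 RPKM in the mutants and 14.5 RPKM in the controls. Cd68 averaged 3.89 RPKM in the mutants and 1.22 RPKM in the controls, with overlapping ranges. The stromal marker Dcn averaged 0.259 RPKM in the mutants and 0.174 RPKM in the controls, also overlapping. The part of Adgre1 and Pdgfra in the phosphodiesterase values was not tested. Of these markers limma called 1 oocyte gene higher and 1 lower in the mutants, and 0 of the 13 tested genes of the other 3 lists. Over all tested genes 5.33% were called.

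Pde8a fell in Setdb1 mutant oocytes to 46.1% of its control mean, and it was the only one of the 6 to pass the test against all controls. Pde3a and Pde4d averaged less in the mutants and Pde3b more, without passing it, and Pde7b and Pde10a varied widely within the groups. In all, 1 of 6 was lower and 0 higher, while limma called 604 of the 11338 tested genes (5.33%) in either direction, 252 lower (2.22%) and 352 higher (3.1%). Of all calls 58.3% were higher, a share that was 47.2% (303 against 339 lower) with the libraries centred on their medians and 48.9% (322 against 337 lower) with quantile normalization. At an unadjusted p under 0.05, 4 of 6 would have counted, against 19.8% of tested genes. The median change of the 6 was -0.37 on the log2(RPKM + 0.5) scale, and that of all tested genes was 0.03. The 6 were chosen with earlier results of these data known, and Pde4d passed the filter only through the controls. Nothing is therefore read from these counts or this median.

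**Figure D1:**
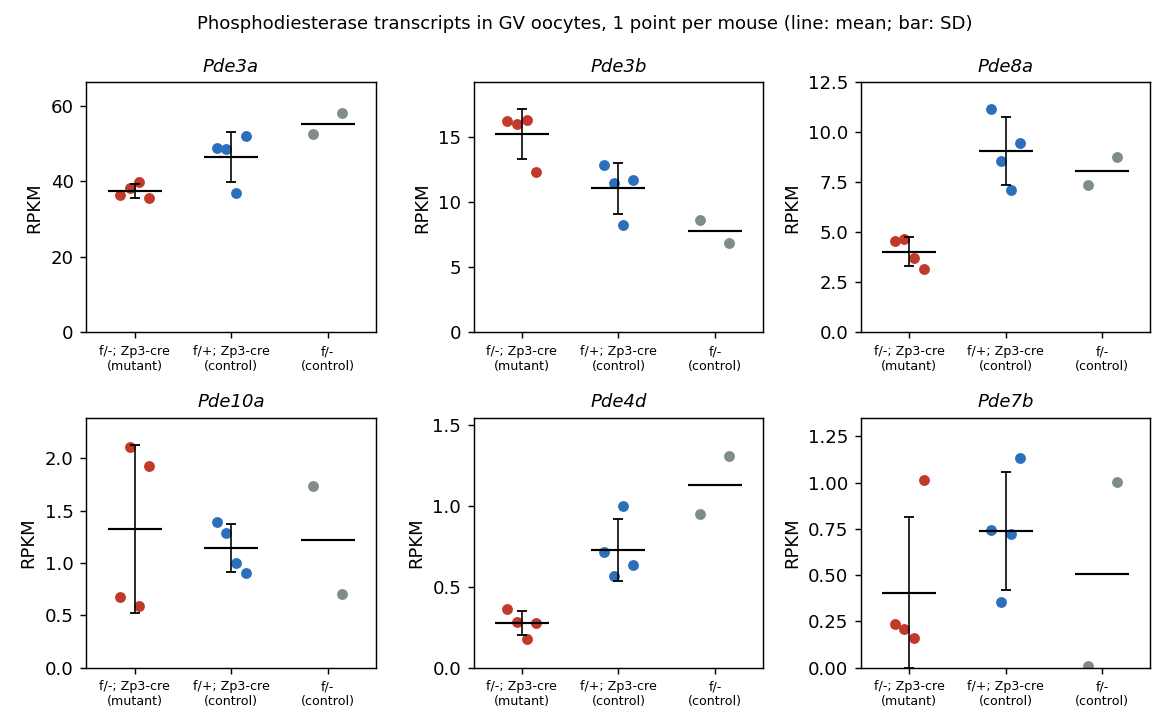
RPKM (vertical axes, linear and starting at 0) of the 6 phosphodiesterase transcripts in each library, grouped by genotype: 4 mutants (red), 4 f/+; Zp3-cre controls (blue) and 2 f/- controls (grey). Lines are group means, and bars the SD where a group has more than 2 libraries. Every mutant lies below every control for Pde8a and Pde4d, while the Pde3a values overlap through 1 f/+ control at 36.9 RPKM.

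Pde3a, which encodes the main cAMP-hydrolysing enzyme of the oocyte, was the most abundant of the 6 in every library. It stood at 36.3, 38.2, 39.8 and 35.5 RPKM in the mutants, against 48.7, 48.5, 36.9 and 51.9 RPKM in the f/+ controls and 52.6 and 58.0 RPKM in the f/- controls. The mutants lay close together, and 5 of 6 controls lay above all of them. The remaining one, f/+ replicate 3, lay inside the mutant range. Pde3a averaged 37.4 ± 1.92 RPKM in the mutants and 49.4 ± 7.04 RPKM in the controls (SD, n = 4 and 6), a log2 change of -0.38 (SE 0.13, 95% interval -0.65 to -0.12, limma adjusted p = 0.097). The difference therefore missed the threshold, and a fall of up to 0.65 on the log2 scale lies inside its interval. Without f/+ replicate 3 the change was -0.47 (limma adjusted p = 0.027), while leaving out another library gave an adjusted p of up to 0.19. Against the f/+ controls alone the change was -0.30 (limma adjusted p = 0.21), and against the f/- controls alone -0.56 (limma adjusted p = 0.056). Against f/- it passed in 1 of 8 other settings, without f/- replicate 1 (limma adjusted p = 0.049). The highest adjusted p over those 8 settings was 0.199. These values rested on 8746 to 17717 recovered reads per library. Reads after amplification are not independent molecules, so the counting error was not measured. In pooled oocytes, fewer cells that hold a transcript and less of it per cell cannot be told apart, here or for any other gene below.

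Pde3b encodes the second cGMP-inhibited phosphodiesterase, best known from fat cells and liver, and it was the next most abundant. Its RPKM were 16.2, 15.9, 16.3 and 12.3 in the mutants, against 12.8, 11.4, 8.22 and 11.7 in the f/+ controls and 8.63 and 6.85 in the f/- controls. The mutant libraries were the highest except replicate 4, which lay below f/+ replicate 1. The means were 15.2 ± 1.93 RPKM in the mutants and 9.94 ± 2.36 RPKM in all controls (SD, n = 4 and 6), a log2 change of 0.61 (SE 0.19, 95% interval 0.20 to 1.03, limma adjusted p = 0.089).

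The direction of Pde3b was the opposite of that of Pde3a, and its size differed with the controls used. Against the f/- controls alone Pde3b rose, with a log2 change of 0.93 (SE 0.22, limma adjusted p = 0.036), and it was the only one of the 6 called there, where 4.84% of tested genes were called. That call rested on single libraries: limma gave adjusted p = 0.071 without mutant replicate 1 and also without mutant replicate 3, 0.14 without f/- replicate 2, and 0.18 when only the libraries of both groups entered the fit. With the replicate number as a block the adjusted p was 0.078. Against the f/+ controls alone the change was 0.45 (SE 0.18, limma adjusted p = 0.20).

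Pde8a encodes a cAMP-specific phosphodiesterase with high affinity for cAMP. It stood at 4.59, 4.65, 3.74 and 3.15 RPKM in the mutants, against 11.2, 8.59, 7.11 and 9.47 RPKM in the f/+ controls and 7.37 and 8.77 RPKM in the f/- controls. The groups did not overlap, with the highest mutant well under the lowest control. Pde8a averaged 4.03 ± 0.718 RPKM in the mutants and 8.75 ± 1.48 RPKM in the controls (SD, n = 4 and 6), a log2 change of -1.03 (SE 0.20, 95% interval -1.45 to -0.60, limma adjusted p = 0.0077). It rested on 496 to 754 recovered reads in each mutant library and on 908 to 1841 in each control library.

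The fall of Pde8a had nearly the same size against each kind of control. Against the f/+ controls it was -1.08 on the log2 scale (SE 0.21, limma adjusted p = 0.012), again the only call among the 6, where 4.89% of tested genes were called. Without f/+ replicate 1 or without f/+ replicate 4 that p became 0.067 or 0.059. Against the 2 f/- controls the change was -0.93 (SE 0.26, limma adjusted p = 0.060). It passed in 1 of 8 other settings of that comparison, without mutant replicate 2 (limma adjusted p = 0.049). With another library left out the adjusted p reached 0.19, and the highest over the 8 settings was 0.32. Against all controls the call held when any one of the 10 libraries was left out, with adjusted p from 0.0089 to 0.029.

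Pde4d encodes a cAMP-specific phosphodiesterase which in the rodent follicle is known mainly from granulosa cells. It was scarce here, at 0.366, 0.283, 0.179 and 0.278 RPKM in the mutants, against 0.713, 0.565, 0.999 and 0.632 RPKM in the f/+ controls and 0.951 and 1.30 RPKM in the f/- controls. Again every mutant lay below every control. The mutant mean of 0.276 ± 0.0763 RPKM was 32.1% of the control mean of 0.861 ± 0.278 RPKM (SD, n = 4 and 6). On the log2(RPKM + 0.5) scale, which understates changes of low values, this was -0.79 (SE 0.28, 95% interval -1.40 to -0.18, limma adjusted p = 0.13), and the test was not passed. The libraries gave 69 to 158 recovered reads in the mutants and 265 to 668 in the controls. The granulosa markers given above overlapped between mutants and controls, and their part in the Pde4d values was not tested.

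For 2 of the 6 genes, Pde8a and Pde4d, every mutant thus lay below every control, as in 3.56% of tested genes (8.18% in either direction). Pde4d passed the filter only through the controls, where it is high, so nothing is read from this count. Pde8a and Pde4d were picked by these values, and Pde4d did not pass the test. Their RefSeq promoters are shown as a description only. Each is the 250 bases before an annotated transcript start in GRCm38.p6, on the plus strand, with GGGCGG, the core of an Sp1-type GC box searched on both strands, in capitals.
Pde8a: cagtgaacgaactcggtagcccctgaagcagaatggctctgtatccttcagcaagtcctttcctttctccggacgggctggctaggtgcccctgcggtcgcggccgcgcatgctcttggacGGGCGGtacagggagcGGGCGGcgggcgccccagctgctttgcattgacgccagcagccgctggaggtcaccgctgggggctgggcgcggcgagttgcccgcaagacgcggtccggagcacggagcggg
Pde4d: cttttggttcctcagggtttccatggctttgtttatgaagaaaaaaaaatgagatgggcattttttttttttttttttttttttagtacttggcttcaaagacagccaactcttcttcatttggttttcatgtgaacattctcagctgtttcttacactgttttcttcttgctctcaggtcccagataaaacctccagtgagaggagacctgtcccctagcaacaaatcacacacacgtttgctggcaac
The Pde8a window, chr7:81213015-81213264, held 2 GGGCGG and 27 CG dinucleotides, more CG than 91.4% of 32851 such mouse windows, whose median is 6. The Pde4d window, chr13:108653927-108654176, held no GGGCGG and 1 CG, and 7.87% of windows held fewer. GGGCGG occurred in 32.7% of all windows. The cAMP response element TGACGTCA, found in 1.55% of windows on either strand, was in neither, and its shorter form TGACG, found in 17.8% and contained in the longer one, occurred once in the Pde8a window. The pair therefore differed in base composition, and no binding or methylation was measured here. The start used for Pde4d is that of the transcript in the deposited table, while the start used for Pde8a lies 331 bases from the nearest GENCODE start. RefSeq promoters were matched for 4 of the 6 genes, and those of Pde3a and Pde3b were not used here.

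Pde7b encodes another cAMP-specific enzyme, known from brain. Its RPKM were 0.237, 0.211, 0.160 and 1.02 in the mutants, against 0.745, 0.357, 0.720 and 1.13 in the f/+ controls and 0.0105 and 1.001 in the f/- controls. Mutant replicate 4 lay with the high controls, and the f/- replicate at 0.0105 RPKM had 2 recovered reads. The means were 0.406 ± 0.408 RPKM in the mutants and 0.661 ± 0.416 RPKM in the controls (SD, n = 4 and 6), with a log2 change of -0.35 (95% interval -1.19 to 0.49, limma adjusted p = 0.67). An interval this wide leaves both a marked fall and a moderate rise possible.

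Pde10a encodes an enzyme that hydrolyses both cAMP and cGMP and is best known from the striatum. It was at 0.679, 2.11, 0.591 and 1.93 RPKM in the mutants, against 1.39, 1.29, 1.002 and 0.910 RPKM in the f/+ controls and 1.74 and 0.703 RPKM in the f/- controls. The mutants fell on both sides of all controls, a pair above them and a pair below. The means were 1.33 ± 0.805 RPKM in the mutants and 1.17 ± 0.375 RPKM in the controls (SD, n = 4 and 6), and the log2 change was 0.05 (95% interval -0.68 to 0.77, limma adjusted p = 0.96). Its sign turned in several other settings of the fit. The 2 Pde10a rows drew on nearly the same reads, so they are not separate measurements.

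**Figure D2:**
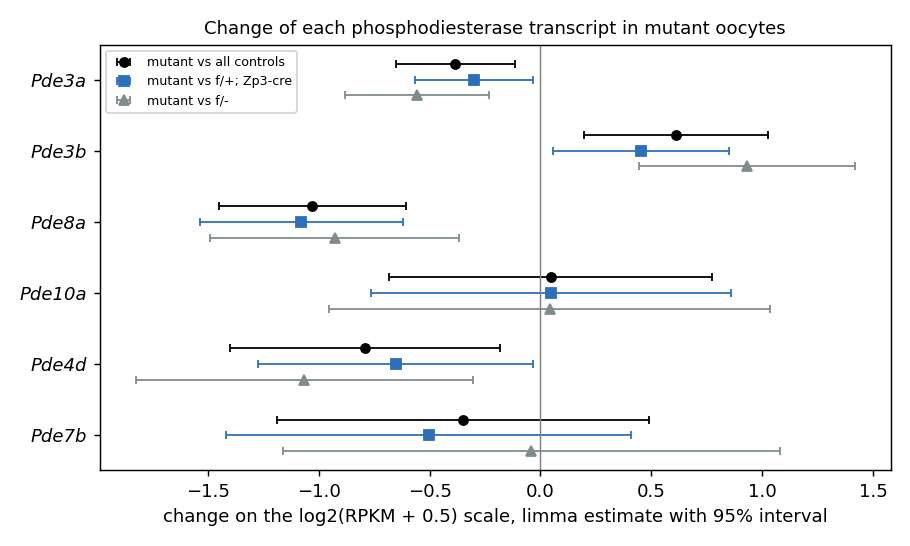
Change of each transcript in the mutants (horizontal axis, log2(RPKM + 0.5) scale, limma estimates with unadjusted 95% intervals) against all 6 controls (black), the 4 f/+; Zp3-cre controls (blue) and the 2 f/- controls (grey). Pde8a lies near -1 in each, at -1.03, -1.08 and -0.93, while Pde3b lies above 0, at 0.61, 0.45 and 0.93. The comparisons share the mutant libraries and are not independent.

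The controls themselves were compared, f/- against f/+, to see how far the 6 differed without the deletion in the oocyte. None of the 6 was called by limma, where 0.0706% of tested genes were, and 0 of 6 reached an unadjusted p under 0.05, where 14% did. Pde3a averaged 55.3 ± 3.81 RPKM in the f/- controls and 46.5 ± 6.58 RPKM in the f/+ controls (SD, n = 2 and 4), a log2 change of 0.26 (95% interval -0.07 to 0.58, limma adjusted p = 0.47). Pde3b averaged 7.74 ± 1.26 RPKM in the f/- controls and 11.04 ± 1.98 RPKM in the f/+ controls, a log2 change of -0.48 (95% interval -0.96 to 0.01, limma adjusted p = 0.37). For Pde8a, the change was -0.15 (95% interval -0.71 to 0.41, limma adjusted p = 0.83). With 2 f/- libraries these intervals do not show that the controls are alike. The f/- controls lay further from the mutants than the f/+ controls for both PDE3 genes, and the difference between control kinds did not pass the test for either.

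RPKM are per length, so the deposited values were ordered between genes, within limits. The transcript lengths they imply differed from GENCODE for Pde3a (4205 against 12302 bases), Pde3b (5286 against 6573), Pde8a (2683 against 3802) and Pde4d (7049 against 2554). They were close for Pde7b (4127 against 4137) and Pde10a (7717 against 7769). The part of these lengths and of amplification in the order, sum and shares was not tested. Pde3a was above Pde3b in all 4 mutants and all 6 controls, with separate ranges in both. Pde3b was above Pde8a in all 4 mutants, where the ranges were separate, and in 5 of 6 controls, where they overlapped. Pde8a was above Pde10a in every library with separate ranges. In the mutants Pde10a was above Pde4d with separate ranges, and Pde7b overlapped both. In the controls Pde10a, Pde7b and Pde4d overlapped each other, and their order is not resolved.

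Within a library the balance of the 6 transcripts differed by genotype. The ratio of Pde3b to Pde3a RPKM was 0.405 ± 0.0419 in the mutants, from 0.347 to 0.446, and 0.205 ± 0.0535 in the controls, from 0.118 to 0.264 (SD, n = 4 and 6). The ratio of Pde8a to Pde3b RPKM was 0.265 ± 0.0283 in the mutants and 0.906 ± 0.189 in the controls. Neither ratio overlapped between mutants and controls. Both were formed after their values were known and are given with no test. They join genes already seen to differ in opposite directions, so their separation adds no support. A ratio within a library shows unequal change and does not say which gene moved.

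**Figure D3:**
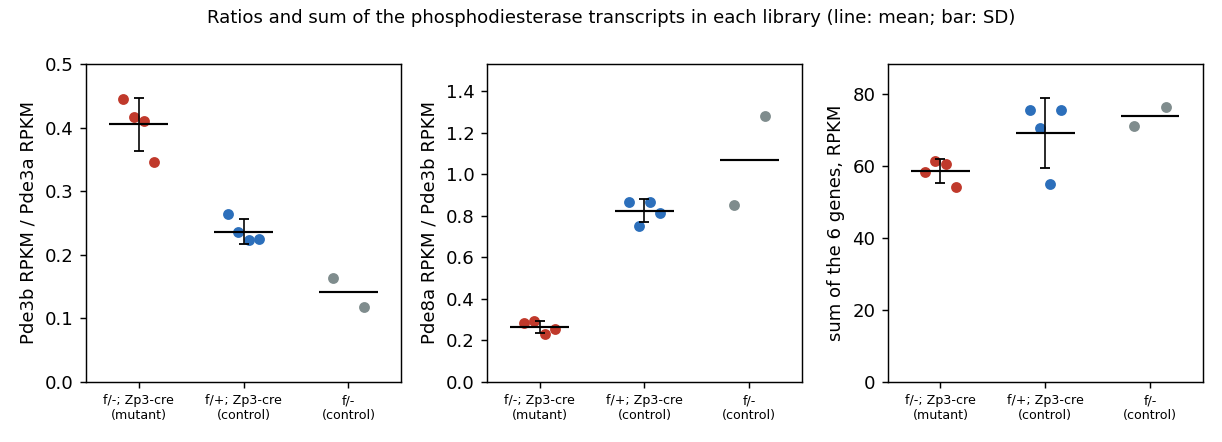
Ratio of Pde3b to Pde3a RPKM, ratio of Pde8a to Pde3b RPKM, and the summed RPKM of the 6 phosphodiesterases (vertical axes, linear and starting at 0) in each library, by genotype, with 4 mutants, 4 f/+; Zp3-cre controls and 2 f/- controls. Lines are means and bars SD where a group has more than 2 libraries. Mutants and controls are separate in both ratios, and overlap in the sum through 1 f/+ control at 55.0 RPKM.

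The summed level of the 6 transcripts was 58.7 ± 3.27 RPKM in the mutants and 70.8 ± 8.14 RPKM in the controls (SD, n = 4 and 6). The ranges, 54.2 to 61.4 RPKM in the mutants and 55.0 to 76.6 RPKM in the controls, overlapped through f/+ replicate 3. Pde3a made up 63.8% ± 1.89 of this sum in the mutants and 69.7% ± 4.22 in the controls. Pde3b made up 25.8% ± 2.19 in the mutants and 14.1% ± 3.02 in the controls, and Pde8a 6.85% ± 1.01 in the mutants and 12.4% ± 1.496 in the controls.

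The remaining family numbered 18 genes, all in the table, of which 8 were tested, 10 were below the filter and 1 of these, Pde4c, was at 0 in every library. Of the 8 tested, 1 fell and 0 rose, where 2.22% of all tested genes were called lower and 3.1% higher. The gene that fell was Pde4a, another cAMP-specific enzyme of the PDE4 group, with 0.224, 0.0987, 0.548 and 0.288 RPKM in the mutants, against 1.47, 2.53, 2.00 and 1.25 RPKM in the f/+ controls and 1.22 and 1.06 RPKM in the f/- controls. Every mutant lay below every control, and the means were 0.290 ± 0.189 RPKM in the mutants and 1.59 ± 0.565 RPKM in the controls (SD, n = 4 and 6). Pde4a passed the filter only through the controls, where it is high, since its mutant mean was lower than 0.5 RPKM. Nothing is therefore read from the count of 1, and with a filter at a mean of 2 RPKM Pde4a was not tested. The log2 change was -1.39 (SE 0.30, limma adjusted p = 0.017), and without f/+ replicate 2 the p was 0.051. Against the f/+ controls it was -1.55 (limma adjusted p = 0.014) and against the f/- controls -1.08 (limma adjusted p = 0.13).

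The 4 most abundant of the remaining family members did not pass the test. Pde6d, a prenyl-binding protein that is no catalytic phosphodiesterase despite its name, stood at 133 ± 19.5 RPKM in the mutants and 128 ± 13.9 RPKM in the controls (log2 change 0.05, 95% interval -0.20 to 0.30, limma adjusted p = 0.86). Pde1b, a calcium- and calmodulin-activated enzyme, stood at 12.1 ± 2.49 RPKM in the mutants and 7.34 ± 1.56 RPKM in the controls, with every mutant above every control (log2 change 0.69, SE 0.20, limma adjusted p = 0.068). Pde6b, a photoreceptor cGMP phosphodiesterase, stood at 6.18 ± 3.30 RPKM in the mutants and 6.27 ± 2.44 RPKM in the controls (log2 change -0.11, 95% interval -0.92 to 0.70, limma adjusted p = 0.91). Pde8b, the closest relative of Pde8a, stood at 2.17 ± 0.284 RPKM in the mutants and 2.84 ± 0.571 RPKM in the controls (log2 change -0.31, 95% interval -0.82 to 0.20, limma adjusted p = 0.51).

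**Figure D4:**
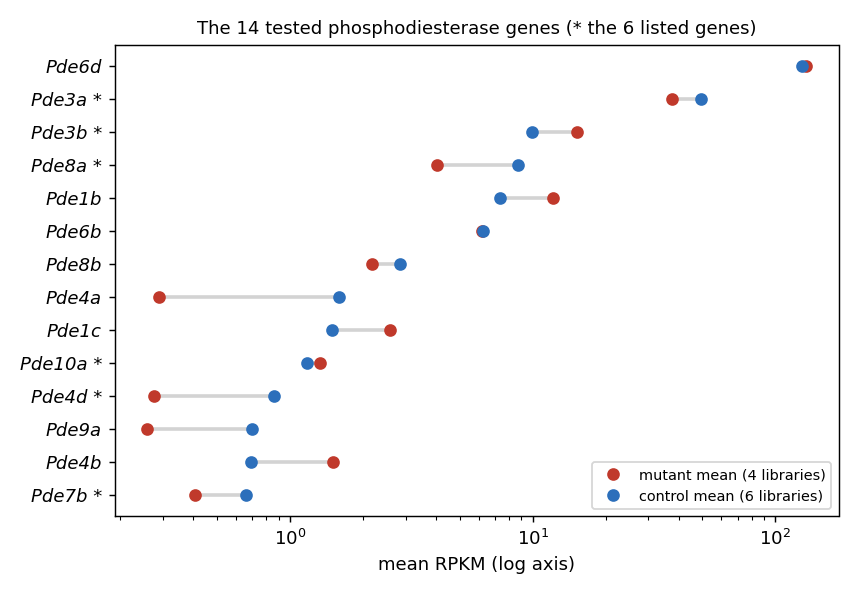
Mean RPKM (horizontal log axis) of the 14 phosphodiesterase genes that passed the filter, in mutants (red, 4 libraries) and all controls (blue, 6 libraries), ordered by control mean, with the 6 followed here marked by an asterisk and no error drawn. The widest gaps below the control mean belong to Pde4a, at 0.290 against 1.59 RPKM, and Pde4d, at 0.276 against 0.861 RPKM.

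The cAMP production and protein kinase A list had 19 of 26 genes tested, with 0 higher and 1 lower against all controls. Of all tested genes 3.1% were called higher and 2.22% lower. The lower gene of the list was Gnai1, which encodes an inhibitory G protein subunit of adenylyl cyclase. It had 5.91, 11.4, 6.30 and 11.04 RPKM in the mutants, against 14.7, 17.5, 23.5 and 19.1 RPKM in the f/+ controls and 16.7 and 10.9 RPKM in the f/- controls, overlapping through f/- replicate 2. Its log2 change was -0.96 (SE 0.24, limma adjusted p = 0.031). That call was lost, by the same limma fit, without mutant replicate 1 (adjusted p = 0.095) or 3 (0.092), and without f/+ replicate 1 (0.055), 2 (0.068), 3 (0.063) or 4 (0.075), and also with no filter on low values (0.087) or no variance trend (0.058). Against the f/+ controls Gnai1 gave -1.11 (limma adjusted p = 0.024, but 0.061 to 0.081 without mutant replicate 1 or 3 or f/+ replicate 2, 3 or 4), and against the f/- controls -0.67 (limma adjusted p = 0.22). Against the f/+ controls, where 4.89% of tested genes were called, 1 gene of the list was also higher. This was Prkaca, a catalytic subunit of protein kinase A, named here after its values were seen. It averaged 16.5 ± 5.04 RPKM in the mutants, 9.01 ± 1.19 RPKM in the f/+ controls (SD, n = 4 each) and 17.8 RPKM in both f/- controls. The change was 0.80 against f/+ (limma adjusted p = 0.047, but 0.061 to 0.15 without mutant replicate 2, 3 or 4 or any 1 of the f/+ libraries) and -0.15 against f/- (limma adjusted p = 0.77). Gnas, the stimulatory subunit and the most abundant gene of the list, stood at 148 ± 25.1 RPKM in the mutants and 111 ± 19.5 RPKM in the controls (log2 change 0.41, limma adjusted p = 0.11). Over the 19, 17 changes were positive and 2 negative against all controls, 16 and 3 against f/+, and 12 and 7 against f/-. Positive changes made up 52.7%, 50.02% and 55.5% of all tested genes in these 3 comparisons, which share the mutant libraries. The median of the list against all controls was 0.35, and that of all tested genes 0.03. This list too was chosen with earlier results of these data known, so nothing is read from its signs or median.

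The gap junction and cGMP list had 2 of 13 genes tested and 0 called. Gja4, the gap junction protein connexin 37 through which the oocyte is coupled to granulosa cells, was its most abundant gene, at 195 ± 25.4 RPKM in the mutants and 167 ± 19.4 RPKM in the controls (limma adjusted p = 0.27). The list of protein kinase A targets and CDK1 regulators had 14 of 14 tested and 0 called. Its most abundant gene over the 10 libraries was Wee2, the oocyte kinase that inhibits CDK1, at 174 ± 18.3 RPKM in the mutants and 190 ± 8.35 RPKM in the controls (limma adjusted p = 0.43). Ccnb2, a cyclin B gene of the list, had the higher mutant mean through mutant replicate 4 at 593 RPKM, with 36.1 to 43.2 RPKM in the other mutants and 36.6 to 66.0 RPKM in the controls. Of 10 proteins known to bind phosphodiesterases, 9 were in the table, 7 were tested and 0 were called. At an unadjusted p under 0.05, 1 gene would have counted in each of these 3 lists, against 19.8% of all tested genes. In list order these were Prkg1 (log2 change -1.06, limma adjusted p = 0.054), Wee1 (0.73, 0.055) and Akap9 (-0.51, 0.12), named after their values were seen. Mutants and controls did not overlap for any of them, as in 8.18% of tested genes. The adjusted p of Wee1 ran from 0.013 with array weights to 0.16 without mutant replicate 1. At the adjusted threshold 5.33% of all tested genes were called.

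The genes whose profiles over the 10 libraries were most like those of the 6 were found by the root-mean-square distance between log2 profiles scaled to mean 0 and SD 1, where candidates had a median distance of 1.31 to 1.40. Pde3a was closest to Tdrd1 (distance 0.27), a Tudor-domain gene of the piRNA pathway, which stood at 157 ± 12.4 RPKM in the mutants and 201 ± 23.0 RPKM in the controls. Pde8a was closest to Sox8 (0.24), a transcription factor gene, at 1.85 ± 0.932 RPKM in the mutants and 15.4 ± 2.80 RPKM in the controls. Pde3b was closest to B3gnt2 (0.29), Pde4d to Cyfip2 (0.23), Pde10a to Lypd6 (0.22) and Pde7b to Atp2b3 (0.46). The second closest were AA536875 for Pde3a (0.37), Stat2 for Pde8a (0.29), Zfp518a for Pde3b (0.30), Pla2g12a for Pde4d (0.29), Pld3 for Pde10a (0.39) and Zfp943 for Pde7b (0.47). These points share libraries and genotypes, and likeness here is a description only.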

How the data were processed

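RNA-seq was measured in 10 pools of germinal vesicle oocytes, 4 mutant, 4 f/+; Zp3-cre and 2 f/-, each from 1 mouse. Per the labels' protocols, RNA was isolated with the RNeasy Micro kit, cDNA was amplified with the NuGen Ovation system and a TruSeq DNA kit, blind to strand, turned it into libraries. Such amplification adds to the spread between libraries. STAR, bcl2fastq 1.8.3 and the build mm10 are named in the submitters' processing notes, and how reads were counted is not given there. The authors deposited RPKM in 1 table of RefSeq transcripts, and the row with the highest mean stood for a gene.

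The spacing of the RPKM gave whole reads, within 1e-05 reads, for 99.0% of the 25672 rows above 0 in at least 3 libraries. The ratios of library totals come from that spacing, and their absolute level from transcript lengths. Reads after amplification are not independent molecules. RPKM are not counts, so limma 3.58.1 (R 4.3.3, with trend) was run on log2(RPKM + 0.5) for genes whose mean reached 0.5 RPKM. Mutants were set against all 6 controls in a fit that pooled both control kinds. Mutants against each control group, and f/- against f/+, came from a fit with all 3 groups. The exact permutation test used SciPy 1.17.1 (Python 3.11.15).

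The 6 genes and all gene lists were chosen with earlier results of these data known. Named besides them were other phosphodiesterases past the threshold or among the 4 most abundant, list members past the threshold against all controls, the most abundant gene of each list, and the 2 genes most like each of the 6 (mean at least 2 RPKM, predicted genes and small RNAs passed over). Genes said to be named after their values were seen were added. Not every gene that the rule names is reported here. Alternatives were other pseudocounts, filters and scalings, no variance trend, array weights, the replicate number as a block, summed or separate transcript rows, each library left out, each control group alone and, added after seeing the data, voom on the recovered reads and leaving out libraries in the other comparisons and for single list genes. Sequences came from GENCODE M21 and RefSeq.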

Additional observations from a re-analysis of the deposited data

Results flagged for a closer look

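In 2 libraries, 3 values stood apart within their groups by Dixon's criterion, which chance meets in about 1 in 20 groups. The screen covered the 6 genes, their sum and the ratio of Pde3b to Pde3a. Each was screened in the mutants, the f/+ controls and all controls, so a flag can arise by chance. Mutant replicate 4 had the lowest mutant value of Pde3b, 12.3 RPKM, with the other 3 mutants between 15.9 and 16.3 RPKM. The same library had the highest mutant value of Pde7b, 1.02 RPKM, with the other 3 between 0.160 and 0.237 RPKM. The f/+; Zp3-cre replicate 3 had the lowest sum of the 6 phosphodiesterases among the controls, 55.0 RPKM, with the other 5 between 70.7 and 76.6 RPKM.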

How the results depend on the processing

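Pde8a kept its direction and its call against all controls in 23 of 24 alternatives, with log2 changes from -1.15 to -0.83, and missed the threshold with the f/- controls alone (-0.93). The other directions also held in all 24 alternatives for Pde3a and Pde3b and in all 23 for Pde4d and Pde7b. Pde3a passed the threshold with array weights (-0.36) and without f/+ replicate 3 (-0.47, its leave-one-out range being -0.47 to -0.34), Pde3b with the f/- controls alone (0.93) and Pde4d without the variance trend (-0.79). The size of the Pde4d change ran from -1.60 with voom on the recovered reads to -0.32 with a pseudocount of 2 RPKM. Pde10a turned to -0.015 with median centring, to -0.30 with array weights and to between -0.16 and 0.26 when libraries were left out. In mutants against f/+ controls Pde10a ranged from -0.16 to 0.26 with libraries left out, in mutants against f/- from -0.41 to 0.49, and in f/- against f/+ from -0.44 to 0.45. Pde7b ranged from -0.82 to 0.74 in mutants against f/- and from -1.24 to 0.31 in f/- against f/+. The causes were not tested. Against all controls the 252 lower genes became 150 with no filter, 581 with array weights (807 higher) and 415 with every transcript row separate. Leaving out 1 library gave 121 to 355 lower and 238 to 439 higher genes against all controls, 66 to 195 lower and 160 to 314 higher in mutants against f/+ (241 and 313 with every library), and 140 to 476 lower and 247 to 991 higher in mutants against f/- (180 and 369). In f/- against f/+ it gave 0 to 546 lower and 0 to 294 higher (3 and 5), the most without f/- replicate 1. With the libraries of both groups alone, mutants against f/+ gave 514 higher and 395 lower, and mutants against f/- 85 higher and 16 lower. The labels do not say that replicate numbers pair the libraries. Same-numbered deviations correlated from -0.05 to 0.03, and 4 of 8 mutant and f/+ libraries correlated best with their own number. Whether same-numbered libraries shared a batch was not tested. With the replicate block, 140 genes were lower against all controls, 139 against f/+, 163 higher and 60 lower against f/-, and 0 higher and 1 lower in f/- against f/+, where Pde10a turned to -0.11. The block changed no call among the 6 other than that of Pde3b against f/-. Depth limits what can be said of Pde4d, at 69 to 158 reads per mutant library, and of Pde4a, at 23 to 124.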

Other observations

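Pde2a, which encodes a cGMP-stimulated phosphodiesterase, was below the filter and was singled out after its values were seen. It stood at 0.0684, 0.0176, 0.00904 and 0.156 RPKM in the mutants, against 0.506, 0.556, 0.349 and 0.483 RPKM in the f/+; Zp3-cre controls and 0.317 and 0.479 RPKM in the f/- controls. Every mutant lay below every control, on 2 to 37 recovered reads per mutant library and 59 to 150 per control library. With no filter on low values, limma gave a log2(RPKM + 0.5) change of -0.75 (SE 0.11, adjusted p = 0.0077 over 19291 genes), and the filter on the mean of all libraries had left it untested. Pde2a was picked for its values, and its mutant mean of 0.0627 RPKM lies near 0. Nothing is therefore read from this p.

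Among the oocyte markers, Nobox, an oocyte transcription factor gene, was higher at 274 ± 25.5 RPKM in the mutants and 205 ± 21.3 RPKM in the controls, and Kit, the receptor for kit ligand from granulosa cells, was lower at 40.0 ± 6.76 RPKM in the mutants and 69.9 ± 5.03 RPKM in the controls (SD, n = 4 and 6), both past the limma threshold against all controls.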
